A study of Mus musculus with 6 samples.

Results

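The genes described here encode enzymes that modify and crosslink collagen: the lysyl oxidases Lox, Loxl1, Loxl2, Loxl3 and Loxl4, the lysyl hydroxylases Plod1 and Plod2, and the prolyl 4-hydroxylase alpha subunits P4ha1, P4ha2 and P4ha3. They were found by gene symbol in the deposited expression table, and all 10 were among its 22134 genes. The series holds 6 RNA libraries of fat from wild-type mice. Of these, 3 were of creeping fat, the mesenteric fat that wraps around injured bowel, taken from mice with repeated cautery injury of the colon, and 3 were of mesenteric adipose tissue from mice with no injury. Neither the age nor the sex of the mice is in the labels, and nothing there tells whether each library had its own animal. The p-values therefore reflect the spread of these libraries, some of which may be technical.

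Collagen chains are modified while they are still in the endoplasmic reticulum. Prolyl 4-hydroxylase, whose catalytic alpha subunits pair with the beta subunit P4hb, hydroxylates prolines and so lets the triple helix stay folded at body temperature. Lysyl hydroxylases hydroxylate lysines, Plod2 being the enzyme of the lysines in the telopeptides at the chain ends. Outside the cell, the copper-dependent lysyl oxidases convert lysines and hydroxylysines to aldehydes, which react with neighbouring chains to form the crosslinks that make a fibril insoluble. In fibrotic tissue these crosslinks, in particular those derived from telopeptide hydroxylysine, are known to make collagen stiff and slow to degrade.

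Values are FPKM, fragment counts of a gene scaled to its length and to the library's total. The gene lengths recovered from the FPKM steps differed from GENCODE exon lengths for some members. They were 9445 against 5392 bases for Plod2, 3252 against 6765 for Plod1 and 2345 against 6239 for P4ha2. For P4ha1 both were 4114. The order of levels between genes and the family shares therefore depend on the lengths used. The totals recovered from the FPKM steps were 31186018 to 43415696 reads per library. For a transcript of 1 kilobase, 3 reads amounted to 0.0691 to 0.0962 FPKM. The test was limma on log2(FPKM + 1), run on the 12812 genes that reached 1 FPKM in 3 or more of the 6 libraries. A change below is the mean of log2(FPKM + 1) in creeping fat less that in controls, with limma's standard error. For genes with low values this scale makes the change look smaller than it is. Adjusted p-values are limma's with Benjamini-Hochberg adjustment over all genes tested, and a gene was called under 0.05. All 10 enzyme genes were tested, and 9 of them were at or above 1 FPKM in all 6 libraries. P4ha3 passed the filter through the creeping fat libraries alone. That it was higher there, without overlap, was therefore fixed by the filter.

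Transcripts known from other tissues were present in the libraries. Marker genes of the seminal vesicle, 8 of 8 in the table, accounted for 4.87% to 8.78% of all FPKM in the creeping fat libraries and for 4.71e-05% to 0.0156% in the control libraries. Those of the exocrine pancreas, 11 of 11, held 0.00212% to 1.31% and 3.91% to 9.75%, with the highest creeping fat value in creeping fat 2. The 4 prostate markers held 0.00342% to 0.0375% and 4.85e-05% to 0.000157%. Adipocyte markers held 0.192% to 0.403% in creeping fat and 0.99% to 2.57% in controls, with the lowest control value in control 2, and all 7 fell. Of the fibroblast and progenitor markers 4 of 5 rose (0.164% to 0.206% against 0.0721% to 0.0889%), and of the macrophage markers 5 of 6 (0.222% to 0.286% against 0.0519% to 0.146%). None of the 5 tested markers of myofibroblasts and smooth muscle was called by limma, nor by voom, and 2 had an unadjusted p under 0.05; their shares overlapped (0.129% to 0.232% against 0.0547% to 0.167%). The 6 gut epithelium markers gave the same counts, with 0.00557% to 0.0483% against 0.00279% to 0.0186%. Of all 12812 genes tested, 2184 were higher and 1759 lower at an unadjusted limma p under 0.05. Of 5 mesothelial markers 1 rose and of 5 endothelial markers 1 fell. Control 2 was the control with the lowest adipocyte and smooth muscle shares and the highest pancreas share. The part of any of these tissues or cells in the differences described below was not tested. In bulk tissue, more cells of a type and more RNA per cell cannot be told apart.

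In creeping fat 8 of the 10 enzyme genes rose and none fell. All 5 lysyl oxidases, Plod2, P4ha2 and P4ha3 were called higher, and Plod1 and P4ha1 were not called. The direction of P4ha3 and its lack of overlap were fixed by the filter, and it is included in the counts and median here. Among all genes tested, 9.35% were called higher and 6.81% lower, 16.2% in all. At an unadjusted p under 0.05, and by voom on recovered reads, the number of members that were lower was also 0. At that unadjusted limma p, 2184 of all 12812 genes tested were higher and 1759 lower. The groups did not overlap in 9 of the 10 members, all higher in creeping fat, against 20.2% of all genes tested. The median log2 change of the members was 1.74, from 0.39 to 2.49, and the median of all genes tested was 0.02, though without control 2 the latter was 0.131. The number of members called higher was 6 to 10 with 1 library left out, 10 without control 2, and no member was called lower under any setting tried. Without control 2 calls became more numerous over all 12812 genes tested, 2896 higher against 1198 and 1857 lower against 872. Calls gained without control 2 are to be read beside that.

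**Figure D1:**
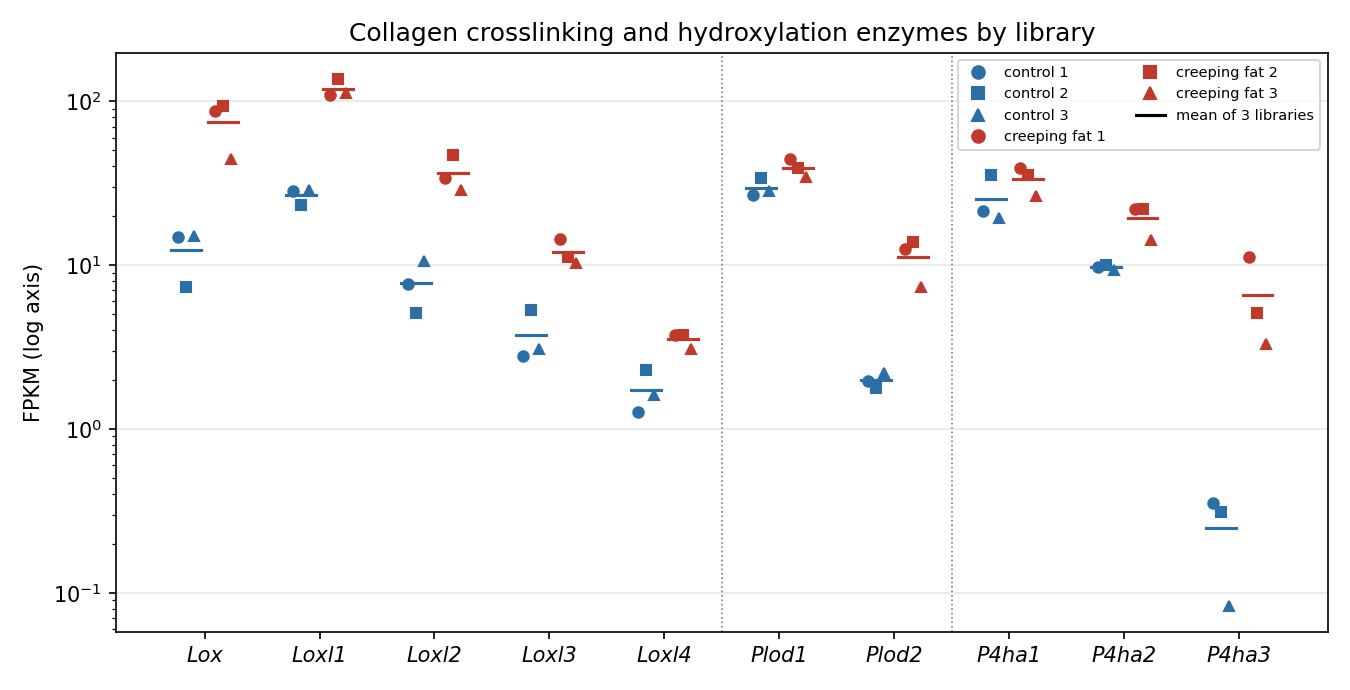
FPKM of each of the 10 enzyme genes (log axis) in each library, with controls in blue and creeping fat in red, the symbol giving the replicate and the line the mean of 3 libraries. Dotted lines part lysyl oxidases, lysyl hydroxylases and prolyl 4-hydroxylase alpha subunits. The groups overlap in P4ha1, where control 2 (35.5 FPKM) lies among the creeping fat libraries, and in no other gene.

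**Figure D2:**
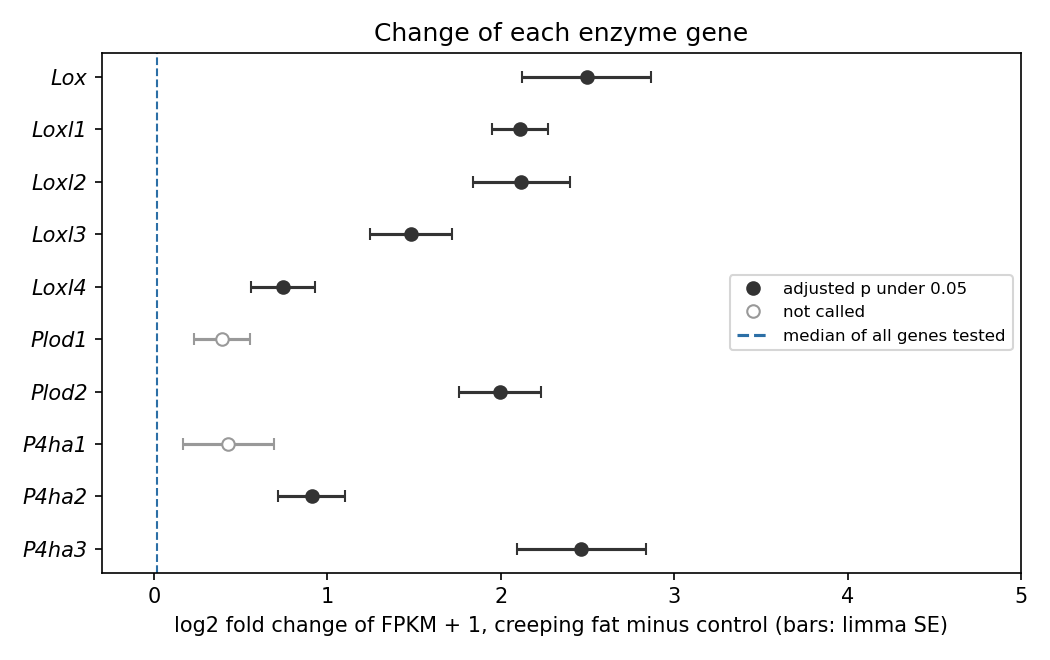
Fold change of each enzyme gene on the log2(FPKM + 1) scale, creeping fat minus control, with limma's standard error. Filled points passed an adjusted p of 0.05 and open points (Plod1 and P4ha1) did not, and the dashed line is the median of all genes tested.

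Lox, the founding lysyl oxidase, whose substrates are fibrillar collagens and elastin, stood at 87.2, 93.8 and 44.2 FPKM in the creeping fat libraries, in order of replicate, and at 14.8, 7.32 and 15.0 FPKM in the controls. Creeping fat 3 was the lowest of its group and control 2 the lowest of the controls, and the groups did not overlap. Lox rose by 2.49 ± 0.37 (adjusted p = 0.0072), with a ratio of mean FPKM of 6.06. Loxl1, which is tied above all to elastic fibres, was the most abundant member in creeping fat, at 108.3, 135.9 and 112.4 FPKM against 28.3, 23.3 and 28.6 FPKM. Its groups were far apart and each was tight. Loxl1 rose by 2.11 ± 0.16 (adjusted p = 0.000909), the smallest p of the members.

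Loxl2 crosslinks collagen IV of basement membranes as well as fibrillar collagen. It stood at 34.1, 46.9 and 28.8 FPKM in creeping fat and at 7.68, 5.12 and 10.6 FPKM in the controls, and rose by 2.12 ± 0.28 (adjusted p = 0.00506). Loxl3 stood at 14.4, 11.3 and 10.2 FPKM against 2.79, 5.32 and 3.06 FPKM, and rose by 1.48 ± 0.24 (adjusted p = 0.00901). Lox, Loxl1 and Loxl2 were each lowest among controls in control 2, whereas Loxl3 was highest there. Loxl4 was the least abundant lysyl oxidase, at 3.74, 3.76 and 3.05 FPKM against 1.27, 2.28 and 1.62 FPKM. It rose by 0.74 ± 0.18 (adjusted p = 0.0367), a call that was lost without control 1, without control 3 and without each creeping fat library (0.62 to 0.82, adjusted p = 0.0867 to 0.141). It was also lost without a filter on low values (adjusted p = 0.069), where 7 members were called. Lox, Loxl1, Loxl2 and Loxl3 were called under all 17 other settings.

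The summed FPKM of the 5 lysyl oxidases was 246 ± 46.5 (SD, n = 3) in creeping fat and 52.3 ± 8.07 in controls, a ratio of 4.7. Within the family the order of the mean levels was the same in both groups: Loxl1, Lox, Loxl2, Loxl3 and Loxl4. Loxl1 held 43.7% to 56.6% of the family FPKM in creeping fat and 48.6% to 53.7% in controls, and Lox 22.2% to 35.2% and 16.9% to 27%, so these shares overlapped.

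The lysyl hydroxylases differed between themselves. Plod2, the telopeptide lysyl hydroxylase, stood at 12.4, 13.9 and 7.34 FPKM in creeping fat and at 1.97, 1.78 and 2.19 FPKM in the controls. Its controls lay close together and well below the lowest creeping fat library. Plod2 rose by 1.99 ± 0.23 (adjusted p = 0.00366), with a ratio of mean FPKM of 5.66. Plod1, which acts on lysines within the helix, stood at 44.2, 38.8 and 34.6 FPKM against 26.7, 33.8 and 28.4 FPKM. The groups did not overlap but nearly touched, and Plod1 was not called (0.39 ± 0.16, adjusted p = 0.151). Without control 2 it was called (0.49, adjusted p = 0.0343), as were 2896 of all genes tested called higher. Plod3, which is not among the 10 and also carries glycosyltransferase activity, stood at 35.5 ± 2.18 against 29.0 ± 4.05 FPKM and was not called (0.29 ± 0.15, adjusted p = 0.26).

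Plod2 made up 13.2%, 15.6% and 9.78% of the summed FPKM of the 3 Plod genes in creeping fat and 3.31%, 2.97% and 3.51% in the controls. The groups did not overlap, and the difference of 9.62 percentage points had an exact two-sided permutation p of 0.1, the smallest that 3 libraries against 3 can give. Over the 11 shares compared in the 3 families, the Benjamini-Hochberg adjusted p was 0.275. The rest was by definition Plod1 and Plod3: Plod1 47.0%, 43.8% and 46.1% against 45.0%, 56.4% and 45.5%, and Plod3 39.8%, 40.5% and 44.1% against 51.7%, 40.6% and 51.0%. Plod1 was the larger share in all 3 creeping fat libraries and in control 2, and Plod3 in control 1 and control 3. The shares of Plod1 overlapped between the groups, as did those of Plod3.

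P4ha3 had the highest ratio of mean FPKM of the 10 genes, 26.4, or 16.9 without creeping fat 1. It stood at 11.3, 5.11 and 3.29 FPKM in creeping fat and at 0.353, 0.310 and 0.0836 FPKM in the controls. In reads recovered from the FPKM steps these were 1011, 443 and 268 against 34, 24 and 9. The value of control 3 had an exact 95% Poisson interval of 0.0382 to 0.159 FPKM, which covers counting error only. The creeping fat libraries were spread over more than the 95% intervals of their counts, with creeping fat 1 the highest. P4ha3 rose by 2.46 ± 0.37 (adjusted p = 0.00758), a direction that the filter had fixed. Because its controls lay under the added 1 FPKM, the size depended on the scale. It was 4.18 with 0.1 added and 4.8 with limma's voom on the recovered reads (adjusted p = 0.00532 and 0.0191).

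P4ha2 stood at 22.1, 21.9 and 14.2 FPKM in creeping fat and at 9.73, 10.02 and 9.31 FPKM in the controls. The ratio of mean FPKM was 2.0, and P4ha2 rose by 0.91 ± 0.19 (adjusted p = 0.0221). That call was lost without control 1, control 3, creeping fat 1 or creeping fat 2 (0.81 to 0.91, adjusted p = 0.0628 to 0.0969). P4ha1, the main alpha subunit of most tissues, stood at 39.0, 35.6 and 26.4 FPKM against 21.3, 35.5 and 19.3 FPKM. Control 2 was nearly as high as creeping fat 2, and P4ha1 was not called (0.43 ± 0.26, adjusted p = 0.335). Without control 2 it was called (0.69, adjusted p = 0.0258), as were 2896 of all genes tested called higher.

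P4ha1 held a smaller share of the summed alpha subunit FPKM in creeping fat, 53.9%, 56.8% and 60.1%, than in controls, 67.8%, 77.4% and 67.3%. The difference of -13.9 percentage points had an exact two-sided permutation p of 0.1, the smallest possible here (0.275 adjusted over the 11 shares). P4ha3 held 15.6%, 8.16% and 7.49% against 1.12%, 0.678% and 0.291%, and P4ha2 had overlapping shares (30.5% to 35% against 21.9% to 32.4%). Since the filter fixed the direction of P4ha3, its larger share in creeping fat is no separate result. P4hb, the partner of the alpha subunits, was far more abundant than these together. It stood at 241 ± 31.2 FPKM against 59.7 ± 14.5 in creeping fat and at 134 ± 2.96 against 35.3 ± 9.2 in controls. P4hb rose by 0.84 ± 0.16 (adjusted p = 0.0147).

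**Figure D3:**
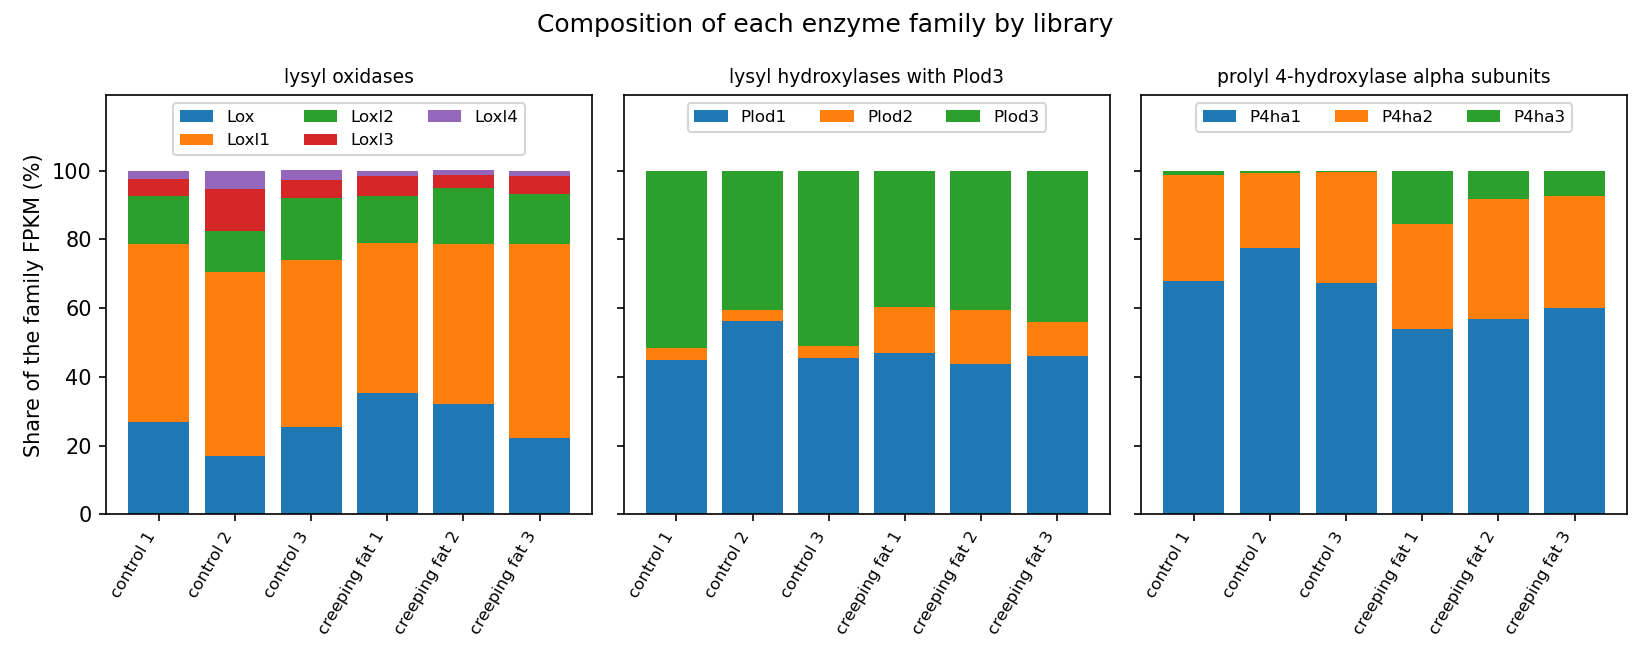
Share of each gene in the summed FPKM of its family (%), by library, for the lysyl oxidases, the lysyl hydroxylases with Plod3 and the prolyl 4-hydroxylase alpha subunits. Plod2 (9.78% to 15.6% against 2.97% to 3.51%) and P4ha3 (7.49% to 15.6% against 0.291% to 1.12%) take larger shares in every creeping fat library than in any control. P4ha3 passed the filter through the creeping fat libraries alone, which fixed its direction.

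P4ha1 and P4ha3, the alpha subunit genes with the smallest and the largest change, are paralogues, and the sequence upstream of each start site is shown so that they can be compared. The sequences are from RefSeq's promoter table (GRCm38.p6, plus strand), which held 5 of the 10 members (Loxl4, Plod1, P4ha1, P4ha2 and P4ha3). They end before the first base that any annotation used here places in the gene. Capitals mark GCGTG, a form of the core of the hypoxia response element, on either strand. They cover chr10:59323046-59323196 (151 bases, ending 100 bases before the start site) and chr7:100285270-100285488 (219 bases, ending 32 bases before it).
P4ha1: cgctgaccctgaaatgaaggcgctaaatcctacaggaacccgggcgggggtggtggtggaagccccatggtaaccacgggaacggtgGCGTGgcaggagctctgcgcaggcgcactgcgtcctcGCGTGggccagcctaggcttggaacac
P4ha3: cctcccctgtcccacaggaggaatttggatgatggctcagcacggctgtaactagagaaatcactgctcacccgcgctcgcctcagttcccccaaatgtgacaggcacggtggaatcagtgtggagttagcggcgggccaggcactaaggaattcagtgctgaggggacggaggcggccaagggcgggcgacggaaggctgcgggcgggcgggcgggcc

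Over the whole 300-base window, from 250 bases before to 50 after the start, P4ha1 held 2 matches to GCGTG and 1 to ACGTG, the other form of that core, P4ha2 held 2 of each, and Plod1 and Loxl4 held 2 and 1 matches to GCGTG. P4ha3 held neither. Both strands were searched, and ACGTG is matched on both strands where it lies in CACGTG. Of 32851 promoters of this length 32.4% held GCGTG and 19.6% held ACGTG. The AP-1 site, searched as TGANTCA, was in 7.81% of them and the TEAD site, searched as GGAATG, in 14.7%, and neither was in any of the 5 members' windows. A match is a description of letters and not a binding site.

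In the order of levels, Loxl1 led in creeping fat, followed by Lox, which was the higher of the pair Lox and Plod1 in every library although the ranges nearly touched (lowest Lox 44.2, highest Plod1 44.2 FPKM). Plod1, Loxl2 and P4ha1 came next with overlapping ranges, then P4ha2, Loxl3, Plod2, P4ha3 and Loxl4, each overlapping its neighbour. In controls Plod1, Loxl1 and P4ha1 led with overlapping ranges, followed by Lox, P4ha2, Loxl2 and Loxl3, each overlapping its neighbour, then Plod2 and Loxl4 with overlapping ranges, and P4ha3 below all others. These are levels in FPKM, per length, and their order depends on the gene lengths used.

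The summed transcripts of the main fibrillar collagen chains, which the enzymes modify, differed between the groups by more than the summed transcripts of the enzymes. Col1a1, Col1a2 and Col3a1 together stood at 9607 ± 1837 FPKM (SD, n = 3) in creeping fat and 445 ± 46.5 in controls, a ratio of 21.6, while the 10 enzyme genes together stood at 356 ± 63.8 against 119 ± 5.02, a ratio of 2.99. For every 1000 FPKM of these 3 collagen chains, the lysyl oxidases together had 24.9, 25.9 and 26.0 FPKM in creeping fat and 128, 106 and 118 FPKM in the controls. The values lay close together within creeping fat and the groups did not overlap, with a difference of -2.19 ± 0.08 (SE) in log2 of the ratio. The closeness was one of the sum. In the same creeping fat libraries Lox had 8.78, 8.33 and 5.79 and Loxl1 10.9, 12.1 and 14.7 FPKM per 1000, in opposite order. Plod1 and Plod2 together had 5.29 ± 0.541 FPKM per 1000 in creeping fat and 71.9 ± 13.5 in controls, and the alpha subunits together 6.2 ± 0.945 and 81.0 ± 28.0. Such a ratio within a library does not depend on the library's total, and so not on the share of other tissues in it, unless they transcribe these genes.

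Among single members the ratio to the collagen chains was lower in every creeping fat library than in any control for 9 of the 10. It was 3.61 times higher in controls for Lox, 3.88 times for Plod2, 4.55 times for Loxl2, 4.79 times for Loxl1 and 6.77 times for Loxl3, and 10.6 to 16.6 times for Loxl4, P4ha2, Plod1 and P4ha1. P4ha3 was the exception, with 1.14, 0.454 and 0.431 FPKM per 1000 against 0.823, 0.759 and 0.168, and the groups overlapped (exact two-sided permutation p = 0.8). Its difference was 0.36 ± 0.87 in log2 of the ratio, and turned to -0.093 without creeping fat 1 and -0.38 without control 3. For each of the 9 the exact two-sided permutation p was 0.1, the smallest possible, and 0.108 adjusted over the 14 ratios compared. The sum of the 3 chains was 21.6 times higher in creeping fat, so any gene that rose much less has a lower ratio. How many of all genes tested would have a lower ratio was not counted. The 9 of 10 can therefore not be read as particular to these enzymes.

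**Figure D4:**
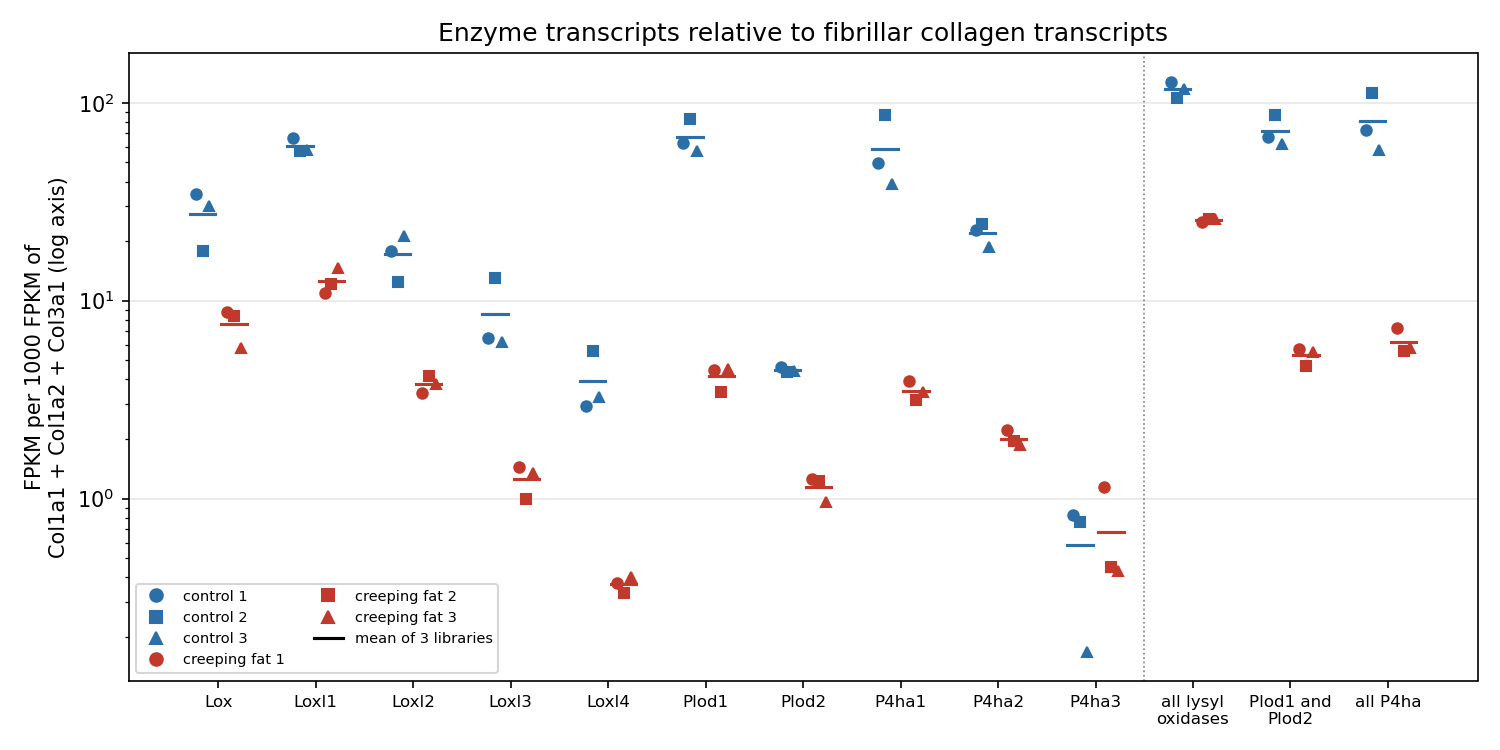
FPKM of each enzyme gene, and of the sums over each class, per 1000 FPKM of Col1a1, Col1a2 and Col3a1 together (log axis), in each library, with controls in blue and creeping fat in red and lines at the mean of 3 libraries. Apart from P4ha3, all creeping fat values lie below all control values, and the summed lysyl oxidases lie between 24.9 and 26.0 in creeping fat. Lox (5.79 to 8.78) and Loxl1 (10.9 to 14.7) are more spread there than their sum. The collagen sum was 21.6 times higher in creeping fat, so any gene that rose much less lies lower.

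The other genes of collagen assembly were read from the same fit. Of 8 tested substrate genes 6 rose and none fell, with a median of 2.88. Col1a1 rose by 5.14 ± 0.21, Col1a2 by 4.46 ± 0.21 and Col3a1 by 3.92 ± 0.25 (adjusted p = 9.72e-05, 0.000157 and 0.000475). Col5a2 and Col5a1, chains that regulate fibril diameter, rose by 3.07 ± 0.22 and 2.69 ± 0.26. Eln, the gene of elastin, which lysyl oxidases also crosslink, rose by 2.22 ± 0.26 (adjusted p = 0.0036), less than Lox and P4ha3. The other tested substrates were not called: Col11a1 was at 1.75 ± 0.58 (adjusted p = 0.0891) and Col5a3 at -0.51 (adjusted p = 0.279).

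Among 14 tested genes of collagen modification and folding in the endoplasmic reticulum, 10 rose and none fell, with a median of 0.94. Fkbp10, a prolyl isomerase known to assist telopeptide lysyl hydroxylation, stood at 51.5, 60.6 and 39.5 FPKM in creeping fat and at 8.47, 10.2 and 9.17 FPKM in the controls. It rose by 2.31 ± 0.19 (adjusted p = 0.00114), the largest change of that list. P3h3 and P3h4, proteins of the prolyl 3-hydroxylase family known to act with Plod1, rose by 1.72 ± 0.23 and 1.18 ± 0.18, and Crtap, of the same family, rose by 1.11 ± 0.16. Fkbp14 rose by 1.11 ± 0.22 (adjusted p = 0.017), but not without creeping fat 1 or creeping fat 2 (0.98 and 1.08, adjusted p = 0.0754 and 0.0645). Serpinh1, the collagen chaperone, was not called (0.95 ± 0.35, adjusted p = 0.116). With 1 library left out 5 to 10 genes of that list were called higher, 5 of them without control 3, creeping fat 1 or creeping fat 2.

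Of 7 tested procollagen proteinases and enhancers 5 rose and 1 fell (median 1.78). Bmp1, the C-proteinase that also activates the lysyl oxidase precursor, stood at 96.7, 127.9 and 86.6 FPKM against 15.9, 18.5 and 21.1 FPKM and rose by 2.41 ± 0.19 (adjusted p = 0.00114). Adamts3 was under 1 FPKM in all controls (0.635, 0.823 and 0.974) and passed the filter through creeping fat alone, so its direction was fixed. The N-proteinases Adamts2, Adamts3 and Adamts14 rose by 2.42 ± 0.20, 2.13 ± 0.21 and 0.96 ± 0.23, and the enhancer Pcolce by 1.78 ± 0.14. Its relative Pcolce2 went the other way and fell by 1.32 ± 0.32 (6.69 ± 1.9 against 18.6 ± 6.42 FPKM, adjusted p = 0.0323). The call of Adamts14 was lost without any library other than control 2 (adjusted p = 0.0642 to 0.121), as was that of Pcolce2 (0.0724 to 0.121). Without a filter on low values neither was called (adjusted p = 0.0662 and 0.0596), and Pcolce2 was not called after quantile normalization (0.0529).

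Of 10 partners of lysyl oxidase and of collagen fibrils 9 rose and none fell (median 2.06). The microfibril protein Mfap4 rose by 4.18 ± 0.24, the fibril-binding proteoglycans Lum and Fmod by 3.72 ± 0.22 and 3.32 ± 0.32, Postn, a scaffold that brings Bmp1 to lysyl oxidase, by 2.35 ± 0.21 and Thbs1 by 2.21 ± 0.41. Without control 1 Thbs1 was not called (2.03, adjusted p = 0.0504). Of 9 tested genes of procollagen export 3 rose and none fell (median 0.56): Creb3l1, a transcription factor of the secretory pathway, by 2.02 ± 0.22, and the coat proteins Sec24d and Sec31a by 1.01 ± 0.13 and 0.56 ± 0.13. Sec31a was not called without any library other than control 2 (0.52 to 0.63, adjusted p = 0.0764 to 0.136).

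Neither the supply of cofactors nor other crosslinking enzymes gave a call. None of 6 tested genes of copper and ascorbate supply was called by limma or by voom (median 0.46), and 3 were higher at an unadjusted p under 0.05, with Atox1, a copper chaperone, at 0.38 ± 0.21 and Slc31a2, a copper transporter, at 0.70 ± 0.24 (adjusted p = 0.272 and 0.0984). Slc31a2 was called without control 2 (0.95, adjusted p = 0.00262), where 2896 of all genes tested were called higher. None of 4 other matrix crosslinking enzymes was called by limma or by voom (median -0.04), and 1 was higher at an unadjusted p under 0.05. These counts at an unadjusted limma p are to be read beside 2184 of all 12812 genes tested that were higher. The transglutaminase Tgm2 stood at 102 ± 9.83 FPKM against 135 ± 35.7 (-0.38 ± 0.21, adjusted p = 0.294), and F13a1, the A chain of clotting factor XIII, at 52.0 ± 4.93 and 27.4 ± 11.8 (0.99 ± 0.31, adjusted p = 0.0794). F13a1 was called without control 2 (0.64, adjusted p = 0.0305), with the same 2896 genes higher, and without control 3 (1.28, adjusted p = 0.0487).

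Lox, Plod2, P4ha1 and P4ha2 are known as genes that respond to low oxygen. Of 18 other hypoxia-induced genes 1 rose and 4 fell, with a median of -0.48. The glucose transporter gene Slc2a1 rose by 1.25 ± 0.17 (adjusted p = 0.0051). Pfkfb3, Bnip3, Pdk1 and Vegfa fell by 1.58 ± 0.21, 1.41 ± 0.34, 0.98 ± 0.23 and 0.74 ± 0.18 (adjusted p = 0.0051, 0.033, 0.0314 and 0.0315). Vegfa stood at 13.03, 19.4 and 16.4 FPKM in creeping fat and at 26.8, 25.7 and 30.4 FPKM in the controls. The number that fell was 9 without control 2, where 1857 of all genes tested were called lower. It was 2 without creeping fat 2 and 1 without any other library, where Pfkfb3 alone held its call. Without a filter on low values Bnip3 and Pdk1 were not called (adjusted p = 0.0592 and 0.0559), and Pdk1 was not called after quantile normalization (0.0613). Adipocyte markers fell beside these genes, and their part in the falls was not tested.

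**Figure D5:**
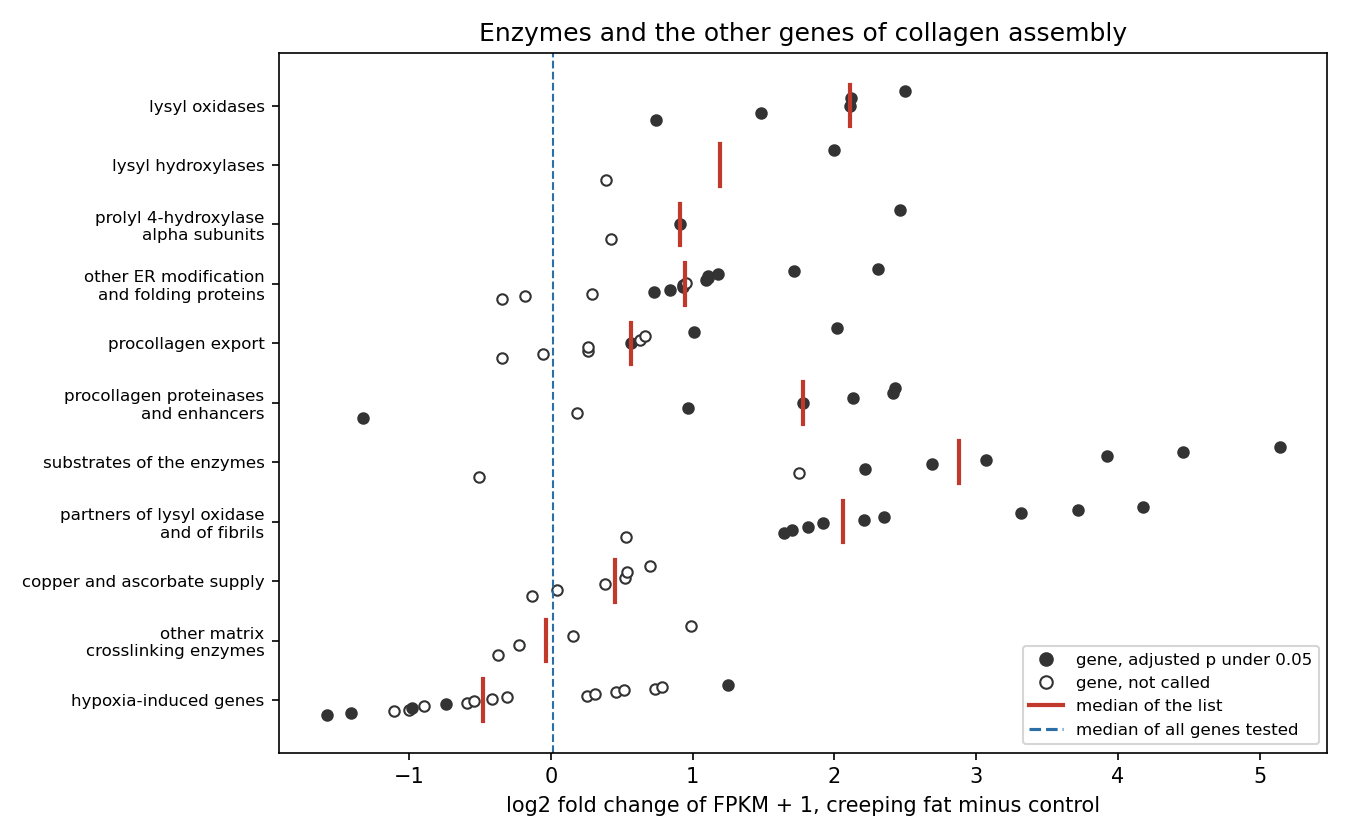
Fold change of each tested gene on the log2(FPKM + 1) scale, creeping fat minus control, for the 3 enzyme classes and the other lists of collagen assembly. Filled points passed an adjusted p of 0.05, open points did not, red bars are list medians and the dashed line is the median of all genes tested. Substrates have the highest median (2.88), ahead of the lysyl oxidases (2.11), and hypoxia-induced genes the lowest (-0.48).

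The genes whose values over the 6 libraries lay nearest to each member, after each gene was centred on its own mean of log2(FPKM + 1), were found among all tested genes outside the lists. For Lox they were Fndc1 and Vcan, the proteoglycan versican (root mean square difference 0.226 and 0.228). For Loxl1 they were Ror2, a Wnt receptor, and Ugt1a7c (0.104 and 0.148), and for Loxl2 Fosb and Fbln2 (0.133 and 0.151). For Loxl3 they were Fxyd5 and Plxnb2 (0.0822 and 0.0908), and for Loxl4 Gm13212 and Gria3 (0.0538 and 0.0542). For Plod2 they were Lama1, a laminin chain, and Kdelr3, an endoplasmic reticulum retention receptor (0.116 and 0.161), and for Plod1 Acbd3 and Ints12 (0.0522 and 0.0547). For P4ha1 they were Pole2 and Galnt7 (0.0863 and 0.092), for P4ha2 Itgav, the integrin alpha V chain, and Uck2 (0.0883 and 0.104), and for P4ha3 Col8a1 and Kcnma1 (0.209 and 0.24). Genes that changed little lie near many others on this measure. The nearest other member was Loxl2 for both Lox and Loxl1 (0.314 and 0.222), Loxl1 for Plod2 (0.236) and Plod1 for P4ha1 (0.193).

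Some values share sequence with other genes. In the GENCODE annotation of mm10, exons of Loxl3 overlap those of Htra2 on the other strand by 535 bases, and exons of Loxl2 and Plod2 overlap transcripts that are not in the table by 308 and 346 bases. Whether counting used strand is not given in the sources used here, so reads of such overlaps cannot be told apart. In that annotation the protein-coding gene Loxl1 lies on chromosome 9 from 58287738 to 58313186, Loxl2 on chromosome 14 from 69609068 to 69695834, Plod2 on chromosome 9 from 92542223 to 92608428, P4ha1 on chromosome 10 from 59323296 to 59373304 and P4ha3 on chromosome 7 from 100285520 to 100319699.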

How the data were processed

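RNA of 6 adipose tissue samples was analysed from 1 deposited table of FPKM values per gene. RNA came from a mirVana kit and libraries from a kit for stranded, ribosome-depleted total RNA, per the labels' protocols. The submitters' processing notes name mm10 as the build. Aligner, counting program and annotation are not given in the sources used here. Since FPKM are scaled to the library, abundant transcripts of another tissue lower all other values in it.

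Groups and replicate numbers came from the sample titles. limma 3.58.1 (R 4.3.3) with a mean-variance trend was fitted to log2(FPKM + 1) of 12812 genes, two-sided, and tested on simulated data. Whole reads were recovered from the FPKM steps, within 0.002 reads, for 18713 of 18714 genes above 0. The smallest gene length that gave whole reads was used, and for genes with reads in few libraries this does not show that the counts are right. Single ratios and shares were compared with exact permutation tests.

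The members and lists were chosen with earlier results of these data known. All 10 members were named, and of each list up to 5 called genes in each direction by size, or the 2 most abundant where none was called; the 2 nearest genes of each member were named too. Col11a1, Col5a3, Eln, P4hb, Plod3 and Serpinh1 were named outside that rule, after their values were seen. The 17 other settings changed the pseudocount, filter, scaling, trend, unit (voom on recovered reads), replicate block or libraries used.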

Additional observations from a re-analysis of the deposited data

How the results depend on the processing

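No member changed direction under any of the 17 other settings in which it was tested. Loxl4 and P4ha3 were tested in 16, as neither passed the filter of a mean of at least 5 FPKM. Under that filter 6 members were called higher. The number of all genes called higher was 576 to 2896 with 1 library left out and 2713 without creeping fat 2 and control 2, against 1198, and the number called lower 287 to 1857 and 1731, against 872. Of the genes in the collagen assembly and hypoxia lists 5 fell, against 2 without a filter, 1 to 13 with 1 library left out and 12 without creeping fat 2 and control 2. With the replicate number as a replicate block, 636 genes were higher and 378 lower, 6 members were called higher, with Loxl4 and P4ha2 lost (adjusted p = 0.0894 and 0.0594), and 1 list gene fell. Under that block Fkbp14, Sec31a, Pcolce2, Bnip3, Pdk1 and Vegfa also lost their calls (adjusted p = 0.0554 to 0.135). Same-numbered libraries did not deviate together (r = -0.181, -0.18 and -0.081 across genes), so the numbers are taken not to pair the samples. With all 10 listed substrates in place of 3 collagen chains, the log2 ratio of the lysyl oxidases differed by -1.83, against -2.19. That of Plod1 and Plod2 differed by -3.39 against -3.75 and that of all members by -2.49 against -2.86. The numerators were the same, so only the denominator differed. Of the substrates added, Eln, Col5a1 and Col5a2 rose by 2.22, 2.69 and 3.07, less than the 3 chains (3.92 to 5.14). Small differences of family shares changed sign. That of Loxl1 (-2.32 points) was -6.13 to 0.294 with 1 library left out, 0.294 without creeping fat 1 and 0.081 without both replicate 2 libraries. That of Loxl2 (0.187) was -1.2 to 1.87 with 1 library left out, -0.464 without creeping fat 2, -0.103 without control 1, -1.2 without control 2 and -1.85 without both. That of Plod1 (-3.32) was -5.31 to 0.402 with 1 library left out, 0.402 without control 2 and 1.3 without both, that of Loxl3 (-2.58) 0.339 without both and that of P4ha2 (4.18) -0.288 without both. The log2 ratio of P4ha3 to the collagen chains (0.36) was -0.384 to 0.76 with 1 library left out, -0.093 without creeping fat 1 and -0.384 without control 3. Depth limits P4ha3 in controls (9 to 34 reads); every other member had at least 276 reads in each library.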

Other observations

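Set against transcripts of the fibroblast receptors Pdgfra and Pdgfrb, a denominator chosen after the values were seen, the enzyme classes, and members within them, went different ways. These ratios depend on the markers used, 2 of the 5 listed. The receptors rose by 0.95 ± 0.19 and 1.34 ± 0.15. Of the other listed markers, Thy1 and Dpt changed by 0.96 ± 0.29 and 1.15 ± 0.22, and Pi16 by more, 2.12 ± 0.27. The lysyl oxidases together had 2.18, 3.0 and 2.06 FPKM for each FPKM of the 2 receptors in the creeping fat libraries and 1.23, 1.1 and 1.22 in the controls, higher in every creeping fat library than in any control. The same held for Lox, Loxl1 and Loxl2 alone. Loxl3 (0.116 ± 0.0104 against 0.0868 ± 0.0415) and Loxl4 (0.0344 ± 0.00365 against 0.0399 ± 0.0157) overlapped between the groups. Their exact two-sided permutation p was 0.4 and 0.8. Plod1 and Plod2 together had 0.499, 0.541 and 0.436 against 0.643, 0.902 and 0.634, lower in every creeping fat library, while Plod2 alone was higher (0.109 ± 0.033 against 0.0449 ± 0.000643). For each of these sums and genes other than Loxl3 and Loxl4 the exact two-sided permutation p was 0.1. That is the smallest possible with 3 libraries against 3, and 14 such ratios were compared. The alpha subunits together overlapped between the groups (0.579 ± 0.106 against 0.819 ± 0.3, exact two-sided permutation p = 0.3). P4ha1 alone was lower (0.328 ± 0.0477 against 0.592 ± 0.268), and P4ha3 higher (0.062 ± 0.0336 against 0.00583 ± 0.00355), in every creeping fat library than in any control. P4ha3 had passed the filter through creeping fat alone, so its higher level there was fixed. Its controls held 34, 24 and 9 reads.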
